A study of Homo sapiens with 8 samples.

Results

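The comparison described here is indisulam alone against no treatment in A549, an established human lung adenocarcinoma cell line. It rests on 4 of the 8 libraries of the series, 2 untreated and 2 indisulam, chosen by the treatment in their labels, and on 18661 of the 60624 genes in the files, which had enough counts to be tested. The other libraries come from cells given SPHINX31, an inhibitor of the kinase SRPK1, alone or together with indisulam, and were used as a separate look at the indisulam effect. The labels give 2 µM indisulam for 18 h for all 8 libraries, the untreated ones included, so they cannot describe the treatment of each library. The study's methods give 0.5 µM for 24 h in A549 (and 5 µM SPHINX31), and 2 µM for 18 h in a separate experiment with a pancreatic cancer line. Dose and time were therefore not taken from the labels. The 2 libraries of a group were technical replicates of 1 cell line, and p-values here measure the spread between such libraries, not between independent treatments.

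Indisulam is an aryl sulfonamide that binds DCAF15, a substrate receptor of the CUL4 ubiquitin ligase, and so brings the splicing factor RBM39 to the ligase. RBM39 is ubiquitinated and degraded by the proteasome. It works beside U2AF at 3′ splice sites, where the spliceosome reads the branch point, the pyrimidine tract and the AG that ends an intron, and its loss is known to cause exon skipping and intron retention. Counts per gene, as analysed here, do not resolve exons, so that a changed count can stand for a changed amount of RNA but says nothing of which exons it held.

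RBM39 was checked first, since indisulam acts on its protein. RBM39 (ENSG00000131051, chr20:35701347-35742312, minus strand, GRCh38) was at 154 and 157 CPM (counts scaled to the TMM-adjusted library size) in the untreated libraries and 361 and 360.3 CPM in the indisulam libraries. The groups did not overlap and its mRNA rose 2.32-fold (log2 fold change 1.22, SE 0.0553, adjusted p = 5.41e-09 by the quasi-likelihood test of edgeR, adjusted by the method of Benjamini and Hochberg and used throughout). RBM23, the paralog of RBM39, was at 101 and 102 CPM untreated and 138 and 135 CPM with indisulam, a rise of 0.43 on the log2 scale. DCAF15 was at 21.2 and 19.9 CPM untreated and 19.9 and 21.9 CPM with indisulam, with overlapping groups and an adjusted p of 0.839. SRPK1 went from 128 and 129.6 to 104 and 101 CPM and fell by 0.33 on the log2 scale. These mRNA levels do not report on the proteins, and in bulk libraries a smaller number of cells of 1 kind and less RNA in each cell cannot be told apart.

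Indisulam changed the counts of a large share of expressed genes, mostly by little. Of the 18661 genes tested, 8148 (43.7%) passed an adjusted p under 0.05, 3757 higher (20.1%) and 4391 lower (23.5%). These shares are the background against which each group of genes below is read. The median log2 fold change of the genes called higher was 0.37 and that of the genes called lower was -0.55, and 4443 of the calls (54.5%) were smaller than 0.5 on the log2 scale. Large changes were more often decreases, since 1037 genes fell by at least 1 on the log2 scale and 481 rose by at least 1. When a fold change had to exceed 1.2 by its own test (edgeR's glmTreat), 3711 genes remained called, 1301 higher and 2410 lower.

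Among genes at that level the largest increase was that of PTBP2 (chr1:96721665-96823738, plus strand), a neuronal relative of the splicing repressor PTBP1, which was at 14.8 and 15.1 CPM untreated and 66.98 and 69.04 CPM with indisulam. RRAGB, a Rag GTPase that signals amino acid supply to mTORC1, went from 8.53 and 8.42 to 34.4 and 34.5 CPM. SEC31B, a coat protein of vesicles that leave the endoplasmic reticulum, went from 12.4 and 13.2 to 42.3 and 35.8 CPM. The log2 fold changes of these genes were 2.19, 2.02 and 1.61. In the plot of the largest changes the libraries of a group lie close together and far from the other group. That separation largely follows from picking genes by their change in these same libraries. Next in order came AMH, a TGF-beta family hormone (1.60), the pseudogene SDHAP4 (1.45), ZNG1B (1.43), the phosphatase and coactivator gene EYA3 (1.35) and the zinc finger gene ZNF557 (1.34). RBM39 itself was followed by CEACAM1 (1.21) and by LUC7L (1.09) and PRPF39 (1.07), both relatives of U1 snRNP proteins that select 5′ splice sites. SDHAP4 and ZNG1B have near-identical copies in the genome, so that their counts are uncertain.

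At the same level the largest decrease was that of R3HDM2 (chr12:57253762-57431043, minus strand), which was at 47.00 and 47.6 CPM untreated and 9.23 and 8.26 CPM with indisulam, a log2 fold change of -2.43 (SE 0.0686). NTSR1, the neurotensin receptor, went from 25.5 and 21.1 to 4.09 and 4.95 CPM. SLC7A11 (chr4:138164097-138242349, minus strand), the cystine carrier that feeds glutathione synthesis, went from 587 and 636 to 129 and 116 CPM. The untreated libraries of each of these genes were above both indisulam libraries, which again largely follows from how they were picked. The log2 fold changes of NTSR1 and SLC7A11 were -2.37 and -2.32. DMAC2L (-2.16) and CDKL1 (-1.81) overlap each other on opposite strands, and CCDC18-AS1 (-1.74) runs antisense to CCDC18. DHFR2 (-2.13) has close copies in the genome, so that its count is uncertain. The kinetochore protein gene CENPI (-2.03), the mitochondrial folate enzyme gene ALDH1L2 (-1.86), the molybdenum cofactor sulfurase gene MOCOS (-1.83), the phosphatase gene PTP4A3 (-1.82) and the collagen-binding integrin gene ITGA2 (-1.76) were the others. Of these 24 genes, 17 overlap another annotated gene, and whether the counting used the strand was not given in the sources used here. Overlaps are also common among the genes named below, since 264 of the 359 genes examined singly overlap another gene.

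Changes were then read by function, over 57 lists that hold 2564 tested genes. In 28 lists more members were called higher than lower, in 26 more were called lower, and in 3 the counts were equal. The direction of this balance changed under at least 1 other setting in 21 lists. These were the lists of the minor spliceosome, mRNA export, RNA polymerase II, G1, replication, kinetochore, mitosis, p53, BCL2, NRF2, ferroptosis, mitochondrially encoded subunits, ribosome biogenesis, mTORC1, glycolysis, cholesterol, lysosome, interferon, NF-kB, complement and chromatin, for which no direction is given below. A list is given by its counts and its median log2 fold change, to be set beside 20.1% higher, 23.5% lower and a median of -0.004 over all tested genes, and no test was made of a list as a whole.

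Genes of the splicing machinery were higher far more often than lower. Among SR proteins and their partners, which bind exons and recruit the spliceosome, 16 of 26 tested members rose and 1 fell, with a median of 0.25. SRSF1, the founding SR protein, was at 74.8 and 75.99 CPM untreated and 131 and 128 CPM with indisulam, and rose by 0.78 on the log2 scale. SREK1, an SR-related protein, went from 78.4 and 83.1 to 139 and 126 CPM (0.71). Also higher were SRRM1 (0.69), PNN (0.66), TRA2A (0.58) and SRSF3 (0.45). The member that fell was SRSF6, from 109 and 108 to 93.2 and 94.4 CPM. Of the 9 kinases that phosphorylate these proteins, 5 rose and 2 fell. CLK4 and CLK1 rose by 0.99 and 0.68, while CLK2 and SRPK1 fell by 0.37 and 0.33 on the log2 scale.

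The particles that assemble on introns moved the same way. Of 43 proteins of the U1, U4/U6.U5 and Sm particles, 26 rose and 2 fell (median 0.18). LUC7L went from 27.8 and 30.5 to 61.4 and 62.3 CPM and PRPF39 from 27.5 and 29.5 to 62.2 and 57.4 CPM, and PRPF3, a U4/U6 protein, rose by 1.01 on the log2 scale. The 2 that fell were PRPF40B (-0.80), a U1-associated protein, and EFTUD2 (-0.45), the GTPase of the U5 particle. Of 28 genes for recognition of the 3′ splice site, where RBM39 acts, 16 rose and 3 fell (median 0.18). SF1, which binds the branch point, went from 262 and 262 to 421 and 428 CPM, and U2AF2, the large U2AF subunit that binds the pyrimidine tract, from 265 and 255 to 336 and 350.1 CPM. SF3B1, the U2 protein at the branch point, rose by 0.31. RBM10 (-0.51) and RBM5 (-0.41), related regulators of exon skipping, were among those that fell. U2AF1 stayed under 1 CPM in all 4 libraries, and since it has a near-identical copy in this genome build its count is uncertain. Of 39 factors for activation and catalysis, 22 rose and 3 fell (median 0.20), with RBM25 up by 0.77 and BCAS2, a member of the PRPF19 complex, down at -0.66.

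Neighbouring steps of RNA metabolism were shifted less or showed no clear direction. Among hnRNPs and other splicing regulators, 17 of 51 rose and 13 fell (median 0.06). HNRNPL rose by 0.61 and ESRP1, an epithelial splicing regulator, went from 17.4 and 18.6 to 9.96 and 9.60 CPM. Of 13 proteins of the minor spliceosome, which removes the rare U12-type introns, 3 rose and 2 fell. Of 23 genes for the exon junction complex and mRNA export, 7 rose and 6 fell. The largest decrease was that of SARNP (-1.81), whose mean log2 CPM was under 3, so that its value rests on few counts. At a mean log2 CPM of at least 3 it was that of NCBP1 (-0.72). Of 18 factors of nonsense-mediated decay, which degrades mRNA with early stop codons, 2 rose and 5 fell (11.1% and 27.8%, median 0.02). Their share lower was near that of all tested genes (23.5%), and the median ran from -0.04 to 0.05 over settings. RUVBL2, a chaperone of the SMG1 kinase complex, was at 179 and 176 CPM untreated and 115 and 129.9 CPM with indisulam. Of 20 cleavage and polyadenylation factors, 7 rose and 3 fell (35% and 15%, median 0.08). PAPOLA, the poly(A) polymerase, had the strongest decrease of these and went from 354 and 362 to 185 and 182 CPM. RNA polymerase II and Mediator genes were balanced at 11 and 11 of 64, although CCNH, the cyclin of the CDK-activating kinase, fell from 24.98 and 25.02 to 9.41 and 8.91 CPM.

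Hosts of small nucleolar RNAs, whose introns hold the RNAs that guide modification of ribosomal RNA, were also higher. Of 24 tested, 13 rose and 2 fell, with a median of 0.28. SNHG1 went from 79.3 and 87.6 to 125 and 122 CPM and SNHG16 from 108 and 101 to 148 and 161 CPM. GAS5 rose by 0.39 and ZFAS1 by 0.49 on the log2 scale. SNHG4 and SNHG14 fell, by 0.99 and 0.79. Of the 39 annotated small nucleolar RNAs that passed the filter, 14 were called higher and none lower, with a median of 0.73, but reads on them were few (median mean log2 CPM -1.99) and polyadenylated RNA had been selected, so that reads of a small nucleolar RNA and of its host cannot be told apart.

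Genes of the ligase that indisulam employs showed small changes. Of 22 subunits and regulators of CUL4-DCAF15, 7 rose and 2 fell. COPS5, the catalytic subunit of the COP9 signalosome, which removes NEDD8 from cullins, went from 47.7 and 49.4 to 76.4 and 73.1 CPM. COPS3, of the same complex, went the other way, from 96.6 and 101 to 73.1 and 73.5 CPM. DDB1, the adaptor of the ligase (0.07), CAND1, its exchange factor (0.12), and DDA1 (0.05) did not pass the test.

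The group with the largest share of decreases held the integrated stress response and the targets of its transcription factor ATF4, which is made when translation slows and drives amino acid supply. Of 39 tested members 26 fell and 1 rose, with a median of -0.38. The serine and folate enzyme genes PSAT1 (-0.88), PSPH (-0.87), MTHFD2 (-0.58), SHMT2 (-0.55) and PHGDH (-0.49) all fell, as did ALDH1L2, from 74.1 and 84.1 to 22.99 and 20.4 CPM. Among stress regulators, TRIB3 (-0.79), ATF5 (-0.51) and SESN2 (-0.37) fell, and DDIT3, the factor CHOP, went from 38.7 and 42.1 to 25.2 and 24.2 CPM. EIF2AK4, the kinase GCN2 that senses uncharged tRNA, went from 51.9 and 51.99 to 29.3 and 29.1 CPM, while EIF2AK2, the kinase PKR that senses double-stranded RNA, was the member that rose, from 110.1 and 112 to 168 and 161 CPM. ATF4 mRNA was at 505 and 494 CPM untreated and 459 and 485 CPM with indisulam and did not pass the test (adjusted p = 0.218). ASNS (asparagine synthetase) and ATF3 did not pass either, at log2 fold changes of 0.06 and 0.15. Thus the carriers SLC7A11, SLC7A1 and SLC3A2 were lower while other well-known targets were not called.

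The promoters of these genes were searched for the letters TGATGNAA on both strands, the composite element that C/EBP-ATF dimers bind. RefSeq promoters (GRCh38.p14, 250 bases before to 50 after the start) were found for 31 of the 39 members, and 6 (19.4%) held a match, against 1.86% of the 12448 tested genes with a promoter and 3.67% of all 27305 promoters in the table. The match was held by 3 of the 19 members called lower (15.8%) and by 3 of the 12 others (25%), so it was no more frequent among those that fell. These stretches show where the letters lay in 3 members that fell and in 2 that were not called, with the match in capitals, read 5′ to 3′ along the gene.
CHAC1, fell, chr15:40953251-40953280, plus strand, match in the reverse direction: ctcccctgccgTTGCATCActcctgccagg
SLC7A1, fell, chr13:29595663-29595692, minus strand, match after the start: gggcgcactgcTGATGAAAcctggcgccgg
SLC3A2, fell, chr11:62881725-62881748, plus strand, match in the reverse direction and after the start: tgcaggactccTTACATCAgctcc
ASNS, not called, chr7:97872458-97872487, minus strand: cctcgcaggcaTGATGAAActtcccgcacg
ATF3, not called, chr1:212565205-212565234, plus strand: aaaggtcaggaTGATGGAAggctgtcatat
A match is a description of letters and no measure of binding.
CHAC1, which degrades glutathione, was at 24.6 and 22.9 CPM untreated and 16.5 and 20.1 CPM with indisulam. SLC7A1, a carrier of cationic amino acids, went from 259 and 266 to 208 and 208 CPM, and SLC3A2, the heavy chain shared by SLC7A11 and other carriers, from 604 and 579 to 477 and 533 CPM. ASNS was at 5.84 and 6.15 CPM untreated and 6.72 and 5.77 CPM with indisulam, and ATF3 at 20.3 and 19.3 and 22.6 and 21.4 CPM. The first 3 genes had groups that did not overlap, and so did ATF3, whereas those of ASNS overlapped. Lack of overlap thus did not separate the genes that fell from those not called. Without indisulam library 1, CHAC1 (adjusted p = 0.0577) and SLC3A2 (adjusted p = 0.129) no longer passed edgeR's test.

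Enzymes that charge tRNAs, many of them known ATF4 targets, were lower as well. Of 35 aminoacyl-tRNA synthetases 17 fell and 6 rose (median -0.14). Cytosolic enzymes led the decreases, with EPRS1 from 458 and 479 to 241 and 233 CPM, MARS1 from 526 and 542 to 294 and 291 CPM and GARS1 from 574 and 593 to 369 and 381 CPM. The mitochondrial enzymes EARS2 (0.54) and WARS2 (0.45) rose. In the unfolded protein response of the endoplasmic reticulum, 15 of 32 fell and 2 rose (median -0.14). HSPA5, the chaperone BiP, went from 696 and 674 to 502 and 515 CPM and EDEM1, which marks misfolded glycoproteins for degradation, from 103 and 102 to 49.1 and 50.3 CPM. The sensors ERN1 (-0.54) and ATF6 (-0.27) fell, while XBP1 (-0.01) and EIF2AK3 (-0.03) did not pass the test.

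Chaperones of the cytosol moved the other way. Of 44 heat shock proteins and co-chaperones, 24 rose and 4 fell, with a median of 0.18. HSPA8, the constitutive HSP70, went from 1109 and 1053 to 1766 and 1753 CPM. HSP90AB1 went from 1739 and 1734 to 2137 and 2075 CPM and CHORDC1, an HSP90 co-chaperone, from 66.3 and 71.6 to 119 and 108 CPM. Of the subunits of the TRiC ring, which folds actin and tubulin, TCP1 (0.32), CCT8 (0.32) and CCT3 (0.27) rose, and CCT5 (0.12) and CCT7 (0.00) did not pass the test. HSF1, the factor that drives heat shock genes, was at 0.09 and did not pass.

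In the translation machinery, members that passed the test were mostly higher, by small amounts. Of 85 cytosolic ribosomal proteins 39 rose and 3 fell, with a median of 0.13. RPS26 went from 185 and 182 to 235 and 233 CPM, while RPLP0 was at 2997 and 2920.3 and 2842 and 3006 CPM and did not pass the test. RPL22L1, a paralog of RPL22, fell from 39.5 and 40.7 to 28.5 and 29.3 CPM. The largest values in the list, of RPL36A (0.63) and RPS10 (0.54), belong to genes that share exons with readthrough genes, and their counts are uncertain. Of 78 mitochondrial ribosomal proteins 29 rose and 8 fell (median 0.10), with MRPS6 up by 0.65. Of 57 initiation and elongation factors 20 rose and 11 fell (35.1% and 19.3%, median 0.07). EIF4A2, a helicase of initiation, went from 203 and 203 to 315 and 294 CPM. EEF2K, the kinase that inhibits elongation, went from 89.8 and 90.6 to 43.5 and 42.5 CPM. Ribosome biogenesis was mixed, at 14 up and 13 down of 61, with strong decreases of UTP4 (-1.38) and UTP6 (-1.34), which process the small subunit RNA. Of 46 proteasome genes 18 rose and 8 fell (39.1% and 17.4%, median 0.07). That is near the shares of genes of like level and exon number. With 4 to 10 exons and a mean log2 CPM over 6, 34.6% of protein-coding genes rose and 15.9% fell (median 0.07). The initiation and elongation factors, with a median of 11 exons, were near these shares too. At 11 to 20 exons and the same level 26.2% rose and 25.7% fell (median 0.02).

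Energy metabolism divided by pathway. Of 33 genes for fatty acid synthesis and oxidation 17 fell and 5 rose (median -0.19). ACACA, which makes malonyl-CoA, went from 180.4 and 197 to 116 and 103 CPM, and SCD, the stearoyl-CoA desaturase, from 1369.6 and 1313 to 1155 and 1135 CPM. In oxidation, ACADS (-0.89), ACADM (-0.77) and HADH (-0.70) fell, but HADHA (0.19) and ACAA2 (0.32) rose. Of 80 nuclear-encoded subunits of the respiratory chain 20 rose and 8 fell. Their median of 0.05 ran from 0.01 to 0.09 over settings and from -0.01 to 0.10 over single library pairs, and NDUFS4 rose by 0.55 while NDUFS1 was down at -0.83. None of the 13 subunits encoded in mitochondrial DNA was called (MT-CO2 at 6109 and 5264 and 5836 and 5208 CPM). Glycolysis had few calls, with 4 up and 7 down of 43, and GAPDH was at 9626 and 9148 and 9111 and 9453 CPM. The glycolysis median was 0.15 for untreated library 1 minus library 2, and -0.10 to 0.04 over single pairs of indisulam minus untreated. With that spread, few calls do not show that the pathway was unchanged. HIF1A, the hypoxia factor, went from 654 and 690.0 to 469.6 and 475 CPM. Cholesterol synthesis was mixed, at 8 and 7 of 31.

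Antioxidant and iron genes were mixed, at 14 up and 8 down of 42 NRF2-linked genes and 8 up and 10 down of 27 ferroptosis genes, and both lists contain SLC7A11. ABCC3, a drug and bile acid transporter, went from 847 and 858 to 296 and 277 CPM, and GSS, glutathione synthetase, from 63.8 and 59.9 to 26.1 and 25.8 CPM. TKT, of the pentose phosphate pathway, rose from 2169 and 2126 to 2639 and 2907 CPM, while FTL, the ferritin light chain, was at 6784 and 6653 and 6520.0 and 6639 CPM and did not pass the test. Nutrient sensing through mTORC1 was mixed too, with 15 up and 11 down of 42. Here RRAGB rose, and MTOR itself fell from 70.01 and 77.5 to 38.4 and 37.01 CPM, together with WDR59 (-0.83) of the GATOR2 complex. In the lysosome and autophagy list, at 17 up and 11 down of 57, ATG7, an enzyme of autophagosome formation, fell from 24.1 and 24.1 to 11.6 and 11.2 CPM. Among 24 coat proteins of COPII and COPI vesicles, 10 rose and 4 fell, with COPA down from 309 and 311 to 202 and 196 CPM.

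Proliferation genes did not move as a block, although single members changed much. DNA replication had 18 up and 21 down of 65, centromere and kinetochore 11 up and 13 down of 48, and mitotic entry and condensin 15 up and 17 down of 56. POLA1, the catalytic subunit of DNA polymerase alpha, fell from 77.9 and 85.3 to 35.7 and 33.3 CPM, while ORC1 rose from 35.8 and 35.8 to 58.9 and 58.3 CPM. Of the constitutive centromere network, CENPI and CENPK fell, CENPK from 36.1 and 39.999 to 12.4 and 12.3 CPM, and CENPC rose by 0.55. TOP2A, the topoisomerase of mitotic chromosomes, went from 629 and 685 to 355 and 330.0 CPM, and PTTG1, securin, from 112 and 112 to 138 and 139 CPM. G1 regulators stood at 5 up and 7 down of 29, with the RB relative RBL1 down at -1.17, CDK4 down at -0.27 and CCND3 up at 0.38. Kinesins were lower more often, with 13 down and 4 up of 38 (median -0.13), led by KIF2A, a microtubule depolymerase, from 110.2 and 121 to 47.5 and 44.4 CPM. Their 34.2% lower and 10.5% higher were near the shares of genes with like exon numbers. The list has a median of 21 exons, and protein-coding genes with 21 to 40 exons were 36.4% lower and 16.3% higher (median -0.10).

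In DNA damage response and repair 26 of 75 fell and 17 rose (34.7% and 22.7%, median -0.06). The list has a median of 15 exons, and of protein-coding genes with 11 to 20 exons 29.5% fell and 21.5% rose (median -0.03). FANCI, of the crosslink repair pathway, went from 209 and 214 to 122 and 112 CPM, and RAD51D rose by 0.60. The p53 targets, of interest since A549 carries wild-type p53, were mixed, at 12 up and 13 down of 37. CCNG1 rose from 141 and 141 to 243 and 246 CPM and BAX by 0.43, whereas XPC (-0.75) and DDB2 (-0.57), both in nucleotide excision repair, fell. MDM2 rose by 0.18 (adjusted p = 0.116 without untreated library 1), and CDKN1A, the inhibitor p21, was at 55.3 and 56.03 CPM untreated and 57.8 and 62.3 CPM with indisulam and did not pass the test. In the BCL2 family 3 rose and 4 fell of 19. BCL2L1, which protects cells (-0.24), and PMAIP1, which sensitises them to death (-0.39), fell, while BAX rose. Of 36 histone genes 6 fell and 2 rose, among them H2AC6, which fell from 17.3 and 18.01 to 7.43 and 8.01 CPM, and most replication-dependent histone mRNAs lack a poly(A) tail and were sampled poorly.

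Among signalling and surface genes, the lists differed in direction. Of 48 receptor tyrosine kinase and RAS pathway genes 19 fell and 7 rose (39.6% and 14.6%, median -0.11). With a median of 18 exons, this list was near genes with 21 to 40 exons, of which 36.4% fell and 16.3% rose (median -0.10). At 11 to 20 exons 29.5% of protein-coding genes fell and 21.5% rose. AXL, a receptor of GAS6, went from 43.9 and 42.9 to 25.5 and 24.4 CPM, and MET (-0.50) and SOS1 (-0.31) fell, while EGFR (-0.07) did not pass the test. Of 38 immediate early and MAPK feedback genes 15 fell and 3 rose (median -0.11), among them DUSP6, an ERK phosphatase, from 42.99 and 42.5 to 28.4 and 28.8 CPM and IER3 from 141 and 138 to 85.96 and 90.4 CPM. Adhesion and matrix genes had 14 down and 7 up of 45 (31.1% and 15.6%). Their median was 21 exons, and these shares were not above those of genes with 21 to 40 exons. ITGA2 went from 54.4 and 56.05 to 17.5 and 14.97 CPM and ITGB6 from 12.3 and 13.3 to 6.17 and 6.22 CPM, and LAMB3 rose by 0.55. WNT and Notch (4 up, 9 down of 48), TGF-beta (7 up, 8 down of 35) and tight junction genes (3 up, 5 down of 33) had fewer calls in either direction than the background or as many. Within them FZD6, a WNT receptor, fell from 49.01 and 50.4 to 23.9 and 22.1 CPM and BMPR2, a BMP receptor, from 40.3 and 42.95 to 26.5 and 24.5 CPM. The YAP list had 6 up and 4 down of 29.

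Innate immune genes were mixed. Interferon response genes had 11 up and 12 down of 45, with TBK1, a kinase of nucleic acid sensing, up from 64.2 and 66.7 to 114 and 111 CPM. NF-kB and cytokine genes had 7 up and 4 down of 31, with IL18 up by 0.44 and CXCL5 down at -0.41. Complement and coagulation genes were equal at 5 and 5 of 22, and the fibrinogen genes FGB (0.55) and FGA (0.45) rose.

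Of 50 genes for assembly of the cilium 21 fell and 5 rose (median -0.14). At a mean log2 CPM of at least 3 the largest decreases were those of TMEM67, of the transition zone, from 14.8 and 15.9 to 6.84 and 6.79 CPM and IFT88, of the transport trains, from 18.9 and 20.1 to 9.27 and 8.85 CPM. Of 55 nuclear pore and transport genes 21 fell and 12 rose (38.2% and 21.8%). This list has a median of 22 exons, and of protein-coding genes with 21 to 40 exons 36.4% fell and 16.3% rose. The median of the nuclear pore and transport genes, -0.02, changed sign with the setting, between -0.07 and 0.03. NUP54 went from 39.03 and 38.9 to 18.5 and 18.7 CPM and NUP88 from 78.8 and 79.4 to 37.97 and 38.01 CPM, and IPO8 rose by 0.59. Zinc finger genes on chromosome 19, which lie in clusters and mostly encode repressors of transposable elements, had 63 up and 18 down of 176 with a median of 0.23. On other chromosomes the same family had 64 up and 38 down of 232 with a median of 0.04. ZNF227 on chromosome 19 rose from 20.8 and 20.9 to 35.9 and 35.1 CPM and ZNF587B fell from 13.04 and 12.1 to 5.86 and 5.08 CPM. Many of these genes are close in sequence, so that their counts are uncertain where reads fit more than 1 copy. Chromatin modifiers were mixed at 12 up and 22 down of 73, with EZH2, the H3K27 methyltransferase, from 48.8 and 53.2 to 26.7 and 22.6 CPM.

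In indisulam against untreated, the balance of increases and decreases differed with the level of the gene. Among 4893 genes with a mean log2 CPM under 0, 10.3% were called higher and 14.5% lower. Between 2 and 4 these shares were 20.8% and 29.9%, the class in which decreases were most frequent. Above 8, among 628 genes, the order turned, with 30.1% higher and 21.5% lower. The size of the change fell with level, as the median absolute log2 fold change was 0.53 in the lowest class and 0.14 in the highest. The median standard error also fell, from 0.37 to 0.05 over the same classes. Among called genes the median decrease was larger than the median increase in each of the 6 classes (for example -0.52 against 0.40 between 2 and 4, and -0.32 against 0.22 above 8). In the combination against SPHINX31, 24.5% were higher and 31.0% lower between 2 and 4, and 32.8% and 23.2% above 8. Under 0 the order differed there, at 16.9% and 14.5%. Between 6 and 8 it differed too, at 27.6% and 29.4%, against 27.7% and 24.4% in indisulam against untreated.

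Biotypes differed as well. Of 14010 protein-coding genes 22.4% were higher and 24.9% lower, with a median of 0.00. Of 3157 long noncoding RNAs 12.7% were higher and 22.9% lower (median -0.11). They had lower counts (median mean log2 CPM -0.84 against 4.54), and in the combination against SPHINX31 their median was 0.01, so that the shift was not seen there. Of 584 processed pseudogenes 9.59% were higher and 5.65% lower (median 0.13).

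Some genes were near absence in 1 group. At most 3 counts in both untreated libraries were found for 49 tested genes, of which 33 were called, and at most 3 counts in both indisulam libraries for 80, of which 71 were called. Such genes passed the count filter only through libraries where they were higher, so a large share of calls was built in. Over all tested genes 43.7% were called, and with a mean log2 CPM under 0 10.3% were higher and 14.5% lower. All stayed low in the other group, with a mean of at most 1.46 CPM. The long noncoding RNA FARP1-AS1 had 1 and 3 counts untreated and 41 and 23 with indisulam. NME5, a gene of cilia and sperm tails, had 53 and 34 counts untreated and 3 and 3 with indisulam, and LINC01389 had 51 and 45 and 2 and 2. No gene switched between absence and a high level in either direction.

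The count of a gene's exons was the structural measure with the strongest rank correlation to the change among those examined. Exons were counted in the canonical transcript of each protein-coding gene (GENCODE 44). Genes with 1 exon, which are not spliced, were higher in 24.8% and lower in 10.1% of 326 cases, with a median of 0.06. From 11 exons on the balance turned, with 29.5% lower and 21.5% higher at 11 to 20 exons and 36.4% lower and 16.3% higher at 21 to 40. Of 289 genes with over 40 exons, 152 (52.6%) fell and 20 (6.92%) rose, and the median was -0.26. Over all 14010 genes the rank correlation of exon number with the log2 fold change was weak (Spearman's rho -0.15, across genes, which are not independent replicates).

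**Figure D1:**
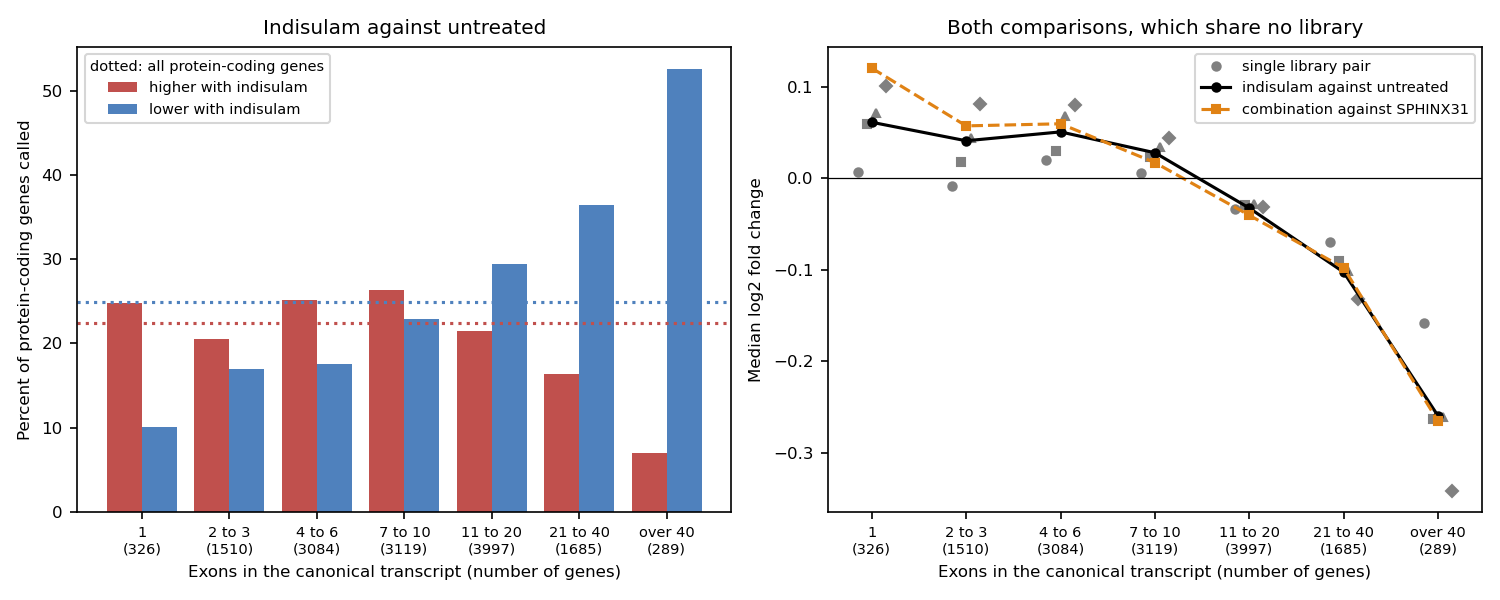
Left: percent of protein-coding genes called higher (red) and lower (blue) with indisulam by number of exons, with dotted lines at the shares over all protein-coding genes (22.4% and 24.9%) and the number of genes in brackets. Right: median log2 fold change by number of exons for indisulam against untreated (black), for each single pair of libraries (grey) and for the combination against SPHINX31 (orange dashed), which falls from 0.06 to -0.26 in the first comparison and from 0.12 to -0.27 in the second.

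The relation was seen in each pairing of libraries. For genes with over 40 exons, the median was -0.16, -0.26, -0.26 and -0.34 in the 4 differences between 1 indisulam and 1 untreated library. Libraries of 1 group also differed by exon number, since the same median was -0.10 for untreated library 1 minus library 2 and 0.13 for indisulam library 1 minus library 2. The size of the shift is thus known only roughly, while all 4 differences had the same sign. In the combination against SPHINX31, which shares no library with indisulam against untreated, the median was -0.27 and 51.2% of these genes fell. The medians of genes with 1 exon ranged from 0.01 to 0.10 over the 4 differences.

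**Figure D2:**
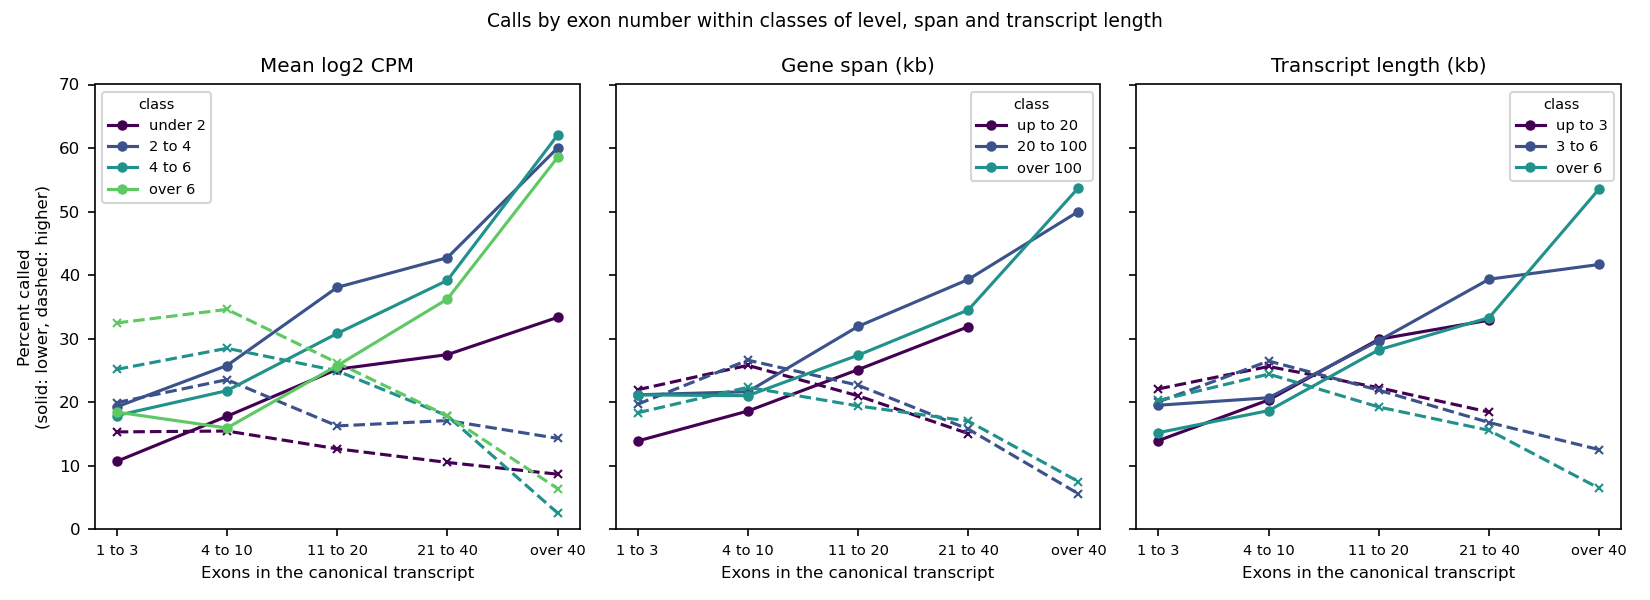
Percent of protein-coding genes called lower (solid lines, circles) and higher (dashed lines, crosses) by number of exons, within classes of mean log2 CPM (left), genomic span (centre) and transcript length (right). Points with fewer than 20 genes are left out. In each class with at least 20 such genes, those with over 40 exons have the largest share called lower, between 33.3% and 62.0%.

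Genes with many exons tend to be long and have other properties, so the shares were also taken within classes of level, span, transcript length, GC content and median intron length. Genes with over 40 exons could be read in 13 such classes, with 24 genes in the smallest. In these the share called lower was between 33.3% and 62.0%, the share called higher between 2.53% and 14.3%, and the median below 0 in 13 of 13. At 21 to 40 exons the median was below 0 in 16 of 16 classes. These classes cut the same genes of the same libraries in several ways, so they are not independent of each other. The number 40 marks no break, as the medians were -0.38 at 39 exons, -0.15 at 40, -0.18 at 41 and -0.13 at 42.

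Large motor and scaffold proteins made up part of the class with over 40 exons, in which 52.6% of genes fell and 6.92% rose (median -0.26). Of 11 dyneins with over 40 exons 7 fell and 1 rose (median -0.76), and the 1 was DNAH14, from 17.9 and 17.3 to 25.3 and 25.9 CPM. Of 15 myosins 8 fell and 1 rose, and their median of -0.26 was that of the whole class. All 3 filamins, which crosslink actin, fell (median -0.55). Of the 23 collagens 6 fell and 3 rose, with a median of -0.07, and no test was made between families. The strongest decreases in the class at a mean log2 CPM of at least 3 were those of MED12, a Mediator kinase module subunit, from 46.1 and 50.7 to 21.99 and 20.4 CPM, and of TMEM131, which takes part in collagen secretion, from 57.9 and 60.3 to 29.6 and 26.2 CPM. In the same class PRPF8, the core of the spliceosome's catalytic centre, rose from 558 and 618 to 869.8 and 802 CPM. MTOR, with 58 exons, and ACACA, with 56, fell as given above.

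Other measures of structure showed weaker relations. Genes spanning over 200 kb were lower in 29.1% and higher in 16%, and those of up to 5 kb in 14.6% and 18.9%. At a mean log2 CPM of at least 3, CADM2 and DCDC1 fell most among the longest, CADM2 from 13.9 and 13.9 to 3.90 and 4.51 CPM, and TXNIP among the shortest. Rank correlations with the log2 fold change were -0.10 for span, -0.06 for transcript length, 0.03 for median intron length, -0.004 for median internal exon length and 0.01 for the median pyrimidine content of 3′ splice sites. GC content gave -0.09 here but 0.01 in the combination against SPHINX31, and genes over 60% GC, at 12.7% higher and 25.6% lower, had a median of -0.08 in the first and -0.004 in the second. In the first this median was not stable, at -0.21 between the libraries numbered 1 and 0.06 between those numbered 2, and from -0.15 to 0.01 over the settings tried. Genes with a U12-type intron, 480 in all, were higher in 25% and lower in 25%, against 22.3% and 25.3% of the rest. No chromosome stood far from the others, with 17.6% to 27.6% higher and 20.8% to 30.5% lower over 23 chromosomes.

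The 3′ splice sites of a gene that fell and of one that rose are shown to make plain how much sites vary within a gene. For MED12 and PRPF8, both with over 40 exons, the sites with the lowest and highest pyrimidine content are printed (GRCh38, last 20 bases of the intron and first 3 of the exon), with the tract that was measured in capitals.
MED12, lowest, intron 15, chrX:71125331-71125353, plus strand: ATGGTGCTGCTGGGATgcaggag
MED12, highest, intron 4, chrX:71120951-71120973, plus strand: TTTTTCCCTCTTTCCTccagaat
PRPF8, lowest, intron 12, chr17:1678650-1678672, minus strand: ATGGGGCAATTGTATTgcagctg
PRPF8, highest, intron 34, chr17:1656759-1656781, minus strand: TCTTCTCTCTTGCTTTtaagttg
The pyrimidine content of the tract ran from 43.8% to 100% in MED12, with a median of 81.3% over its sites, and from 43.8% to 93.8% in PRPF8, with a median of 78.1%. The gene that fell and the gene that rose thus had sites over nearly the same range.

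The indisulam effect was looked up in a second pair of groups, cells given SPHINX31 with and without indisulam. Each comparison was fitted on its own 4 libraries and they share none. Of 8329 genes called for indisulam against untreated in that fit (44.6% of those tested), 8203 (98.5%) had the same direction in the combination against SPHINX31 and 6753 (81.1%) were called again in it, where 23.7% of all genes were called higher and 25.3% lower. The share called again was 68.9% for genes with a mean log2 CPM under 0 and between 80.3% and 83.8% in the other classes. Called in the opposite direction were 2 genes, ARFRP1 and RNF19A. The log2 fold changes were of like size, with a median ratio of 1.03. All 24 genes with the largest changes were called again in the same direction, among them PTBP2 (2.31), R3HDM2 (-2.38), SLC7A11 (-2.29) and RBM39 itself (1.13).

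A test of the difference between both indisulam effects (interaction, edgeR on all 8 libraries) called 0 of 18661 genes (0%), with a smallest adjusted p of 0.178. At an unadjusted p under 0.05 there were 1584, where 933.05 would be expected with no difference. An interaction is less precise than either effect, so that this count does not show the effects to be equal.

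**Figure D3:**
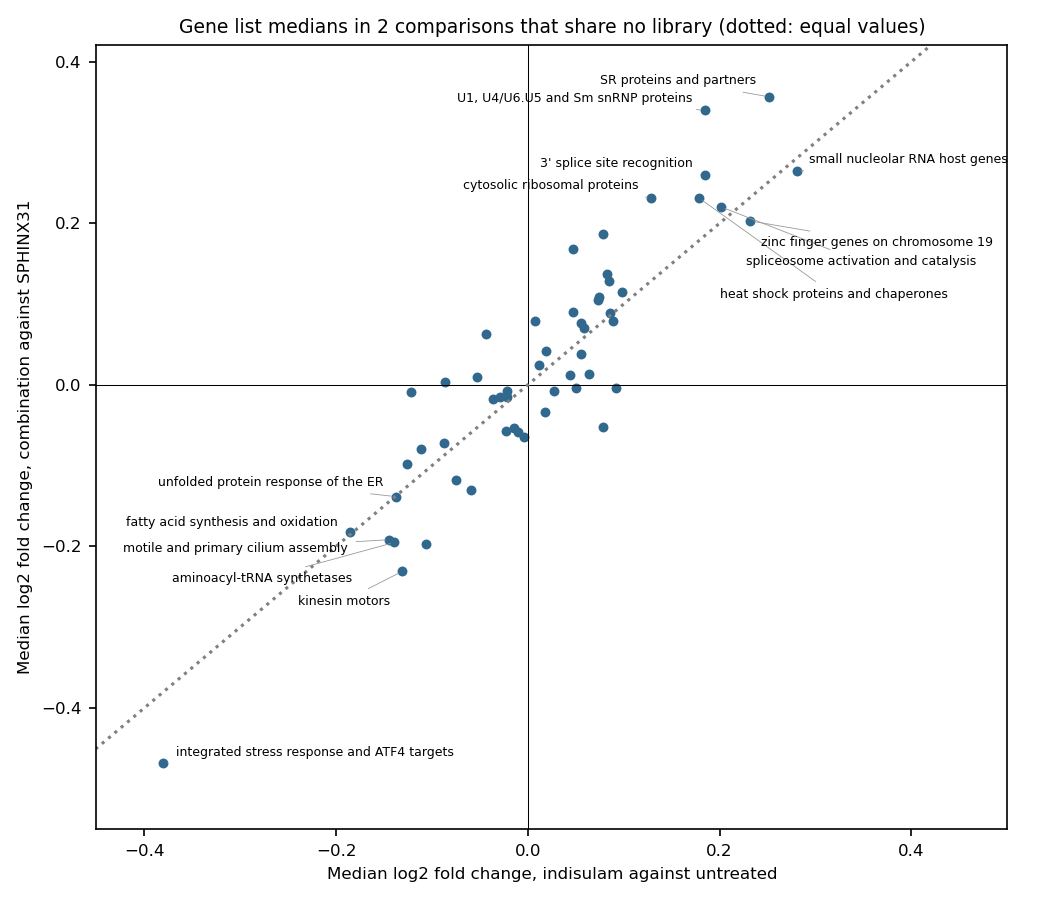
Median log2 fold change of each gene list with at least 10 tested members, for indisulam against untreated (horizontal axis) and for the combination against SPHINX31 (vertical axis), with the dotted line at equal values. Of all 57 lists 49 had medians of the same sign in both, and the ATF4 list lies lowest on both axes (-0.38 and -0.47).

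Of the 57 lists, 49 had a median of the same sign in both comparisons. The median of SR proteins was 0.25 and 0.36, that of snRNP proteins 0.18 and 0.34, that of cytosolic ribosomal proteins 0.13 and 0.23, and that of ATF4 targets -0.38 and -0.47, in indisulam against untreated and in the combination against SPHINX31 respectively. Lists whose sign differed had medians between -0.09 and 0.09 in indisulam against untreated.

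Reads outside annotated genes were recorded by the authors beside the gene counts. They made up 3.94% and 4.34% of recorded reads in the untreated libraries and 5.48% and 4.49% in the indisulam libraries. The groups did not overlap, but the mean difference of 0.847 percentage points rested mostly on indisulam library 1, and with 2 libraries a group an exact permutation test cannot give a two-sided p under 0.333, the value found. The mean was higher with indisulam on 23 of 23 chromosomes, with ratios from 1.07 to 1.38, and both indisulam libraries were above both untreated libraries on 19 of 23. In the second pair of groups the share was 3.67% and 3.93% with SPHINX31 and 5.87% and 4.87% with the combination. Whether these reads lay in introns cannot be read from these totals.

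The libraries were of like depth, with 51727369 to 63186989 counts on genes, so that they differ little in precision. Of the A549 and lung epithelial markers 12 of 15 were tested, with summed levels of 22950 to 22979 CPM untreated and 20189 to 20753 CPM with indisulam. Markers of blood (2 of 8 tested, 7.31 to 10.1 CPM summed), of fibroblasts and endothelium (4 of 10, 6.02 to 7.22 CPM) and of liver and neurons (7 of 8, 48.6 to 55.6 CPM) were low in all 4 libraries. AKR1B10, typical of A549, went from 6914 and 6894 to 5165 and 5364 CPM.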

How the data were processed

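Paired-end, strand-marking RNA libraries of polyadenylated RNA from A549 were sequenced by the authors, with 4 groups of 2 technical replicates. Deposited values are raw counts of reads per gene, made by the authors with HISAT2 2.2.1 and HTSeq on GRCh38 (submitters' processing notes), and the annotation release and the strand setting of the counting are not given in the sources used here. Rows for reads outside genes were kept out of library sizes and tests. They were 3.94% to 5.48% (no feature) and 4.88% to 6.03% (ambiguous) of recorded reads in these 4 libraries.

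Counts of all 8 libraries were filtered with filterByExpr, scaled by TMM (factors 0.978 to 1.02) and fitted with edgeR 4.0.16 in R 4.3.3 (quasi-likelihood test, Benjamini-Hochberg adjusted p under 0.05). The contrast was indisulam minus untreated. Depth was 51727369 to 63186989 counts on genes, and the biological coefficient of variation was 0.0491. Replicates differed beyond sampling noise (chi-square per degree of freedom 6.60 untreated and 7.92 indisulam), so none were merged. Gene structure came from GENCODE 44, which held 99.7% of tested genes, and promoters from RefSeq. Scripts were tested on simulated data. Python 3.11.15, pandas 2.3.3, scipy 1.17.1 and matplotlib 3.10.9 were used.

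The gene lists and the comparison itself were chosen with earlier results of these data known. DROSHA was taken off the minor spliceosome list and eIF2 kinases, 4E-binding proteins and EIF4ENIF1 off the translation factor list after values were seen. Genes were named by rule. The rules took the 12 largest changes in each direction at a mean log2 CPM of at least 3, the 2 largest called in each direction per list at the same level, the extremes by exon number and span, and genes with at most 3 counts in 1 group. Genes such as ATF4, ASNS, ATF3, DDIT3, CHAC1, SLC3A2, SLC7A1, U2AF2, SF3B1, EIF2AK4, SRSF6, CDK4, MDM2, CDKN1A, HSPA5 and TOP2A, and others given only a log2 fold change from their list, were chosen after their values were seen.

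Alternatives were DESeq2 1.42.0, other scalings and filters, the 4 libraries alone, GC offsets, a replicate block, a fold threshold and leaving out each library. A few genes are not reported here.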

Additional observations from a re-analysis of the deposited data

Results flagged for a closer look

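Reads outside annotated genes, which enter no gene-level comparison, were a larger share of recorded reads with indisulam (5.48% and 4.49%) than untreated (3.94% and 4.34%), a mean difference of 0.847 percentage points. The groups did not overlap, and the exact two-sided permutation p of 0.333 is the smallest that 2 against 2 libraries can give. The pooled SD within groups was 0.533 percentage points. Over reads on genes and outside them alone, the difference was 1.02 percentage points.

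On the unplaced contig KI270733.1, indisulam library 1 had 35087 reads outside genes and indisulam library 2 had 9002, against 7678 and 7864 untreated, 10802 and 7099 with SPHINX31 and 8664 and 15081 with the combination. The value of 1 library thus stands above all others, and no test was made of it.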

How the results depend on the processing

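The count of genes called with indisulam, 8148 as reported, was between 6628 (DESeq2) and 9598 (adjusted p under 0.1) under changes of scaling, filter, libraries fitted and threshold, except for 3711 under the test against a fold change of 1.2. Leaving out 1 library at a time gave 5887 to 6846 genes, with the lone library of its group assumed to vary like the others. The median of genes with over 40 exons stayed between -0.35 and -0.22, and their share called lower was 36.7% to 48.8% with 1 library left out. The share of calls seen again with SPHINX31 present was 80.2% to 83.1%. No called change of a gene examined singly reversed, but the median of 11 lists changed sign under a setting, as did the balance of calls in the 21 lists named above. Among 359 genes examined singly, 311 were called, and 273 of these under every setting run. RPS10 was lost under DESeq2 and without untreated library 2 or indisulam library 1 (adjusted p up to 0.158). CCT5 passed under 3 settings, CAND1 in a fit of the 4 libraries alone and HSF1 without indisulam library 1. Of list medians, 103 of 570 recomputed values moved by more than 1 SD. This SD was taken between the list medians of the same-numbered indisulam minus untreated differences, not between libraries of a group.

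Same-numbered libraries of both groups deviated in opposite directions (correlation -0.566 over 9980 genes, median of all pairs 0.0517), so the numbers were not taken as pairs. The replicate block gave 7851 calls, 3610 higher and 4241 lower. With the indisulam numbers exchanged, an alternative added after the data were seen, the block gave 8952. The block ended no call named in the report.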

Other observations

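Single genes outside the group accounts changed in either direction. Among genes with 1 exon, which have no intron to remove, EPM2AIP1, a partner of the glycogen phosphatase laforin, went from 23.4 and 24.5 to 44.3 and 41.7 CPM and MAGEH1 from 10.2 and 10.8 to 15.1 and 16.6 CPM. Among genes over 200 kb, ELMO1, which helps activate RAC1, rose from 8.77 and 8.69 to 14.98 and 15.1 CPM and NCALD, a calcium sensor, from 25.05 and 23.6 to 39.9 and 39.9 CPM, although genes of this span fell more often than they rose. TXNIP, an inhibitor of thioredoxin and of glucose uptake, fell from 12.8 and 15.2 to 4.52 and 5.44 CPM.

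In cholesterol metabolism, whose counts were balanced, INSIG1, which holds back sterol sensing, rose from 35.4 and 34.4 to 49.9 and 49.5 CPM and the synthase gene HMGCS1 from 55.1 and 54.6 to 78.1 and 76.3 CPM. Among NRF2 targets, HMOX1 was at 24.9 and 21.9 CPM untreated against 23.4 and 25.6 CPM with indisulam, and TXNRD1 at 2574 and 2595 CPM against 2688 and 2657 CPM, and neither passed edgeR's test. HMOX1 and TXNRD1 were chosen after their values were seen.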
